A study of Mus musculus with 12 samples.

Results

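The complement and coagulation factors described here are 36 genes of the mouse liver whose products are secreted into blood plasma, chosen by name from the 2 pathways. All 36 are among the 24296 gene symbols of the deposited table, and all 36 reached the mean of 0.5 FPKM (fragments per kilobase of transcript, relative to the fragments of the library) needed for testing, as did 13158 genes in all. Total RNA from 12 livers of male C57/BL6N mice was sequenced, with 3 livers in each of 4 groups. The control group is labelled as wild type, with no carbon tetrachloride (CCl4) named. The model group received 2 injections of CCl4, a liver toxin, in olive oil (1:9 by volume) each week over 8 weeks, at 5 mL/kg, to induce fibrosis. Mice of the remaining 2 groups had the same CCl4 and, from week 5, the flavonolignan silibinin of milk thistle or phloridzin, a glucoside of a dihydrochalcone, at its high dose of 40 mg/kg. The age of the mice is not given in the sources used here. The 4 groups show how far the RNA of these genes changed in the fibrotic liver and with each drug. Library sizes read from the steps of low values lay between 83.7 and 110.8 M fragments, with the smallest in model 1 (replicate numbers are those of the labels).

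Complement and coagulation are cascades of plasma proteases that circulate as inactive precursors, and the hepatocyte makes most of them. In complement, the recognition proteins and their proteases activate C3 and C5, and the terminal proteins assemble a pore in the target membrane. In coagulation, the contact and the tissue factor routes meet at factor X, thrombin then turns fibrinogen into fibrin, and anticoagulants and the plasmin system limit the clot. Loss of clotting factors from the blood is a known sign of a failing liver.

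The livers carried the markers of hepatocytes. All 10 hepatocyte markers were tested, with albumin (Alb) the most abundant in every liver, and their summed level was 21134, 25449 and 20839.6 FPKM in the control livers, 18560.5, 26952 and 30258 in the model livers, 31303, 37339 and 22749.8 with silibinin and 24002, 32999 and 27492 with phloridzin. On a scale of median ratios between livers the order of control and model turned, with means of 26060.1 and 21512 against 22474 and 25257 FPKM. No hepatocyte marker was listed at 0 in any liver. Of these 10 markers, 0 rose and 1 fell in the model group, the pericentral enzyme Cyp2e1, from 2812 ± 1255 FPKM to 504 ± 38.5 FPKM (SD, n = 3; log2 fold change -2.35, SE 0.39, adjusted p = 0.00144 by limma). On that scale 2 of the 10 fell, 8 had a log2 fold change below 0 and their median was -0.52, against 1, 5 and -0.07 on the FPKM scale. In whole liver tissue, fewer hepatocytes and less RNA per hepatocyte cannot be told apart, which holds for each value that follows.

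In the model group the factors were mostly lower than in the control group. Of 36 members, 8 fell and 0 rose at an adjusted p under 0.05 (limma with a variance trend on log2(FPKM + 1), Benjamini-Hochberg over 13158 genes), where 3.8% of all genes tested fell and 31.1% rose. Coagulation factor V (F5), plasma prekallikrein (Klkb1), factor VII (F7), C6, plasminogen (Plg), C8a, heparin cofactor II (Serpind1) and factor IX (F9) were the 8. The log2 fold change was below 0 in 33 of 36 members, with a median of -0.49 (16 members had an unadjusted p under 0.05), whereas the median over all genes tested was 0.34. Shares of all genes at that unadjusted threshold are not given, here or below, so such counts of members stand without a comparison. In the model group 31.1% of all genes rose and 3.8% fell even at the adjusted threshold, so the 16 members are not read as an excess. The model livers were all below all control livers in 20 members, which was so in 6.92% of all genes, and no member was higher without overlap. With a fold of more than 2 as a further condition, 2 members fell (F5 and Klkb1) against 1.08% of all genes. Klkb1 passed in no comparison when the gene Gm45753, which overlaps it, was added to its level, which left 7 members that fell in the model group, 1 of them by more than 2-fold.

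FPKM carries no correction for library composition, and the choice of scale sets how many members pass. Scaling the livers by median ratios moved the median of all genes in the model group from 0.34 to 0.01 and the split of all calls from 4094 higher and 500 lower to 1727 higher and 1547 lower. On that scale 20 members fell and 0 rose, against 11.8% of all genes that fell, 11 fell by more than 2-fold (3.46% of all genes), and the median of the members was -0.94. Not all of these 20 are named below, and some members given below without a call in the model group are among them. All log2 fold changes given below are on the FPKM scale unless stated otherwise, and a log2 fold change of FPKM + 1 understates the change of a gene with low values.

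**Figure D1:**
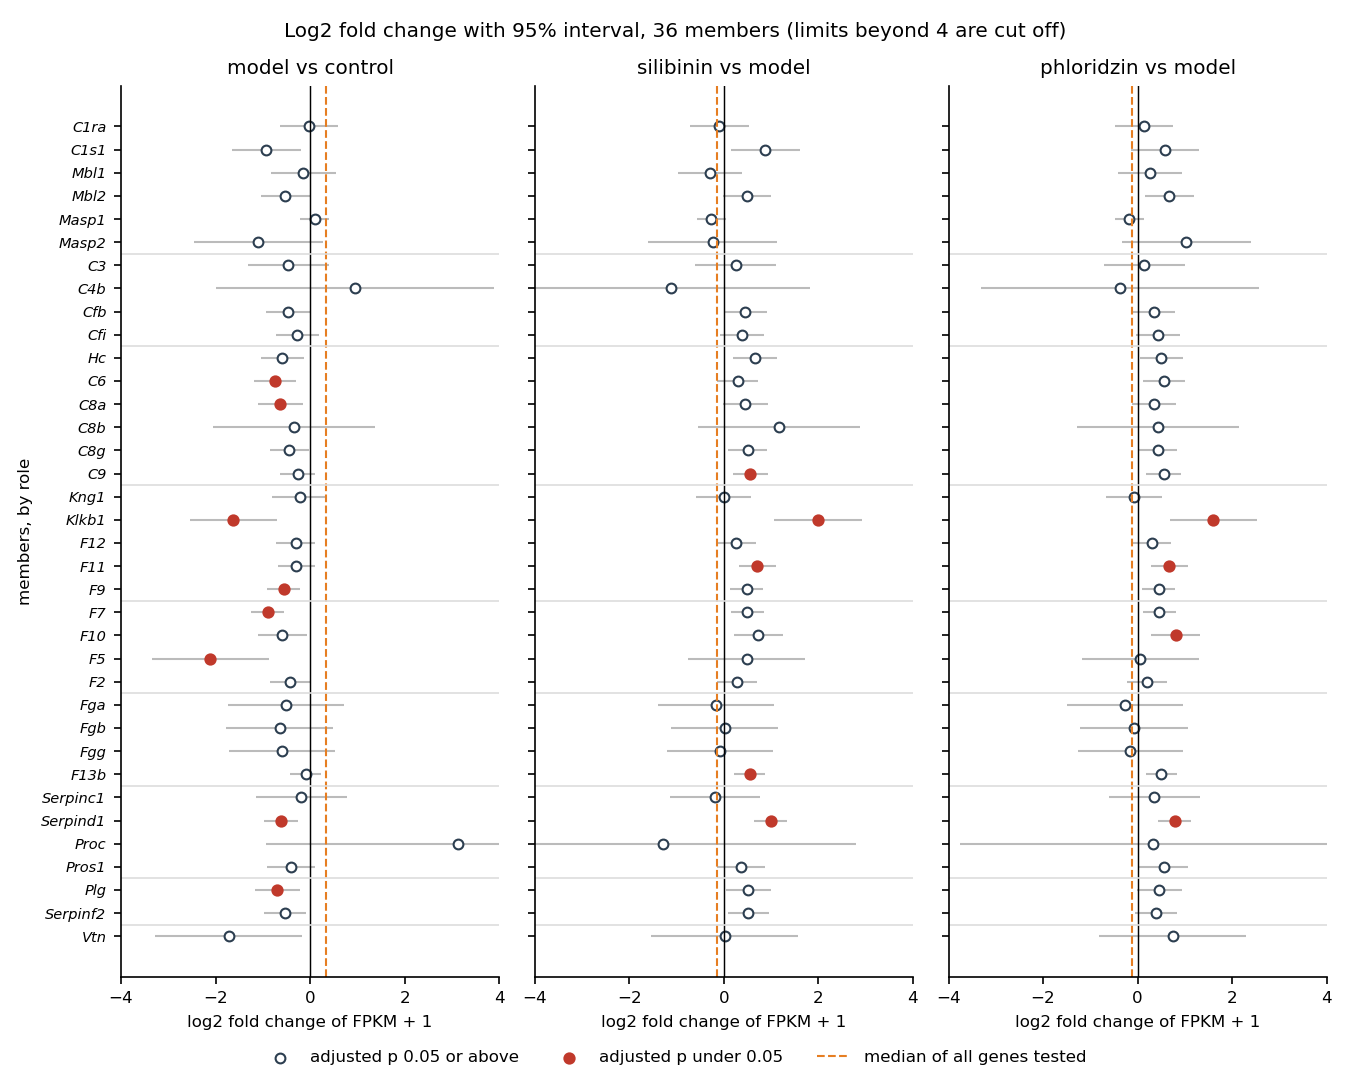
Log2 fold change of FPKM + 1 with its 95% interval for each of the 36 members, ordered by role, in the model group against control and in each drug group against model. Filled points passed an adjusted p of 0.05, and the dashed line is the median of all genes tested, 0.34, -0.15 and -0.11 in the panels from left to right. Most points lie left of 0 in the first panel and right of 0 in the others.

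With silibinin 5 members rose against the model group and 0 fell, where 2.62% of all genes rose and 11.4% fell. They were Klkb1, Serpind1, factor XI (F11), C9 and the factor XIII B subunit (F13b). With phloridzin 4 members rose and 0 fell, where 2.5% of all genes rose and 10.4% fell, and these were Klkb1, Serpind1, F11 and factor X (F10). The log2 fold change was above 0 in 26 of 36 members with silibinin (median 0.42, all genes -0.15) and in 30 of 36 with phloridzin (median 0.43, all genes -0.11). For the 10 hepatocyte markers it was above 0 in 8 with silibinin (median 0.43) and in 7 with phloridzin (median 0.07). Both comparisons use the same 3 model livers, so their values are not independent of each other or of the fall in the model group. The drug group was above the model group without overlap in 15 members with silibinin (8.91% of all genes) and in 12 with phloridzin (8.21%). With silibinin Masp1 and Masp2 were below the model group without overlap (27.8% of all genes). Only Klkb1 passed with more than a 2-fold rise, against 0.745% of all genes with silibinin and 0.6% with phloridzin, and with Gm45753 added 0 members did, 4 rose with silibinin and 3 with phloridzin. On the median ratio scale 10 members rose with silibinin (5.59% of all genes) and 6 with phloridzin (4.75%), and 0 fell with either. By more than 2-fold it was 2 with silibinin (1.44%) and 1 with phloridzin (1.07%). The split of all calls went from 345 higher and 1504 lower to 732 and 850 with silibinin, and from 329 and 1362 to 621 and 823 with phloridzin. In each drug comparison 13 members had an unadjusted p under 0.05.

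The counts rest on single libraries to a degree that differs between the comparisons, and the shares of all genes moved in the same refits. In the model group 3.8% of all genes fell, and 2.67% without control 1, 3.02% without model 1 and 2.29% without model 2. With silibinin 2.62% rose, and 1.79% without model 1, 1.17% without model 2 and 3.45% without phloridzin 1. With phloridzin 2.5% rose, and 1.41% without model 1, 0.892% without model 2 and 1.04% without phloridzin 2. It was 2.8% without phloridzin 1 and 0.596% with the compared groups alone. In the model group 5 members fell without control 1, 5 without model 1 and 5 without model 2. With silibinin the count of 5 became 3 without control 1, 2 without model 1, 2 without model 2, 3 without any 1 silibinin liver and 10 without phloridzin 1, which is not in that comparison and enters through the shared estimate of the spread. With phloridzin the count of 4 became 1 without model 1, 1 without model 2, 2 without model 3, 1 without phloridzin 2 and 9 without phloridzin 1. It was 0 when only the model and phloridzin livers were fitted and 1 with the replicate number as a block. The 2 members that fell by more than 2-fold became 1 without control 2, 1 without control 3 and 4 without model 3. The 1 that rose so with silibinin became 3 without model 3 and 2 without silibinin 1, and with phloridzin it became 0 without any 1 model liver, without phloridzin 1 or without phloridzin 2. The median of the members was 0.24 with silibinin without silibinin 3 and 0.27 with phloridzin without phloridzin 2.

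On the FPKM scale the recognition proteins and the first proteases of complement gave no call in any of the 3 comparisons. Mannose-binding lectin C (Mbl2), which binds microbial sugars, averaged 106 ± 9.8 FPKM in the control group, 73.7 ± 12.9 FPKM in the model group, 106 ± 33.7 FPKM with silibinin and 119 ± 25.1 FPKM with phloridzin (SD, n = 3). The C1 protease gene C1s1 was the nearest of these to a call in the model group (log2 fold change -0.93, SE 0.33, adjusted p = 0.0502), and its values were 146, 141 and 138 FPKM (control), 89, 39.2 and 115 (model), 135, 141 and 132 (silibinin) and 82.8, 140.0 and 117 (phloridzin). Model 2 was the lowest of the 12 livers for C1s1, and the other 2 model livers were also below all controls. The other C1 protease gene C1ra lay between 31.7 and 68.8 FPKM and its groups overlapped in all comparisons. The lectin pathway protease Masp1 had 50.2 ± 0.777 FPKM in the control group and 54.3 ± 8.28 FPKM in the model group. Masp2, which cleaves C4 and C2, and Mbl1, a second mannose-binding lectin at a few FPKM, are given with the members of uneven level below.

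C3, the protein on which the complement routes converge, is among the most abundant liver transcripts. Its level was 3597, 2253 and 4381 FPKM in the control livers, 2178, 2757 and 2249.5 in the model livers, 3066, 2033 and 3668 with silibinin and 1567, 2858 and 4031 with phloridzin. The groups overlapped, and the difference between model and control did not pass the test (log2 fold change -0.46, SE 0.39, adjusted p = 0.376). Complement factor B (Cfb), the protease of the alternative pathway convertase, averaged 487 ± 83.2 FPKM in the control group and 349 ± 35.3 FPKM in the model group with no overlap (log2 fold change -0.47, adjusted p = 0.103 by limma). Complement factor I (Cfi), which inactivates C3b and C4b, averaged 238 ± 8.81 FPKM and 199 ± 26.8 FPKM. C4b, which carries the classical and lectin routes to C3, is given with the members of uneven level.

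Of the 6 members that form the terminal pathway, 2 fell in the model group, where 3.8% of all genes fell. All 6 had a log2 fold change below 0. C6, which joins C5b in the nascent pore, was at 80.9, 73.3 and 77.4 FPKM in the control livers, 48, 54.5 and 36.4 in the model livers, 45.3, 51.9 and 75.4 with silibinin and 65.8, 75.7 and 63 with phloridzin. All control livers were above all model livers for C6, the silibinin livers overlapped with both, and the phloridzin livers lay above all model livers. C6 fell in the model group (log2 fold change -0.74, SE 0.20, adjusted p = 0.0156), but not without model 3 (adjusted p = 0.0576). With phloridzin C6 passed only without silibinin 3 (adjusted p = 0.0477). C8a, the alpha chain of C8, was at 218, 205 and 279 FPKM in the control livers, 149, 168 and 133 in the model livers, 232, 157 and 237 with silibinin and 153, 230.5 and 195 with phloridzin. The control and model livers of C8a did not overlap and the drug livers spread over both ranges (log2 fold change -0.63, SE 0.21, adjusted p = 0.0428). The call of C8a was lost in 12 of 22 alternatives, among them without control 1 (adjusted p = 0.0726), control 2 (0.0543), control 3 (0.136), model 1 (0.0914), model 2 (0.0565), model 3 (0.123), silibinin 1 (0.0527) or phloridzin 3 (0.0532).

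C9, the protein that closes the pore, was at 303, 348 and 290.4 FPKM in the control livers, 259, 278 and 248 in the model livers, 397, 335 and 434 with silibinin and 345, 469.9 and 348 with phloridzin. Every liver of both drug groups was above the 3 model livers for C9, and the difference passed the test with silibinin (log2 fold change 0.56, SE 0.17, adjusted p = 0.0492) but missed it with phloridzin (log2 fold change 0.55, adjusted p = 0.0565). On the median ratio scale C9 passed with phloridzin (log2 fold change 0.73, adjusted p = 0.0386) and was lower in the model group (log2 fold change -0.71, adjusted p = 0.0249), and without phloridzin 1 it passed with phloridzin too (adjusted p = 0.0411). The silibinin call was lost in 15 of 22 alternatives, among them without control 1 (adjusted p = 0.0703), control 2 (0.0581), control 3 (0.0575), model 1 (0.109), model 2 (0.0926), model 3 (0.121), silibinin 1 (0.128), silibinin 2 (0.0515), silibinin 3 (0.159) or phloridzin 3 (0.0536). The C5 gene Hc, whose product is split to start the terminal pathway, averaged 388 ± 80.2 FPKM in the control group, 255 ± 12.5 FPKM in the model group, 407 ± 72.1 FPKM with silibinin and 366 ± 62.4 FPKM with phloridzin. Its model livers lay below all livers of the other groups, and its adjusted p was 0.0507, 0.0603 and 0.143 in the 3 comparisons. C8g, the lipocalin chain of C8, averaged 171 ± 31.4 FPKM, 125 ± 12.2 FPKM, 177 ± 13 FPKM and 171 ± 40.3 FPKM in the same order of groups.

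**Figure D2:**
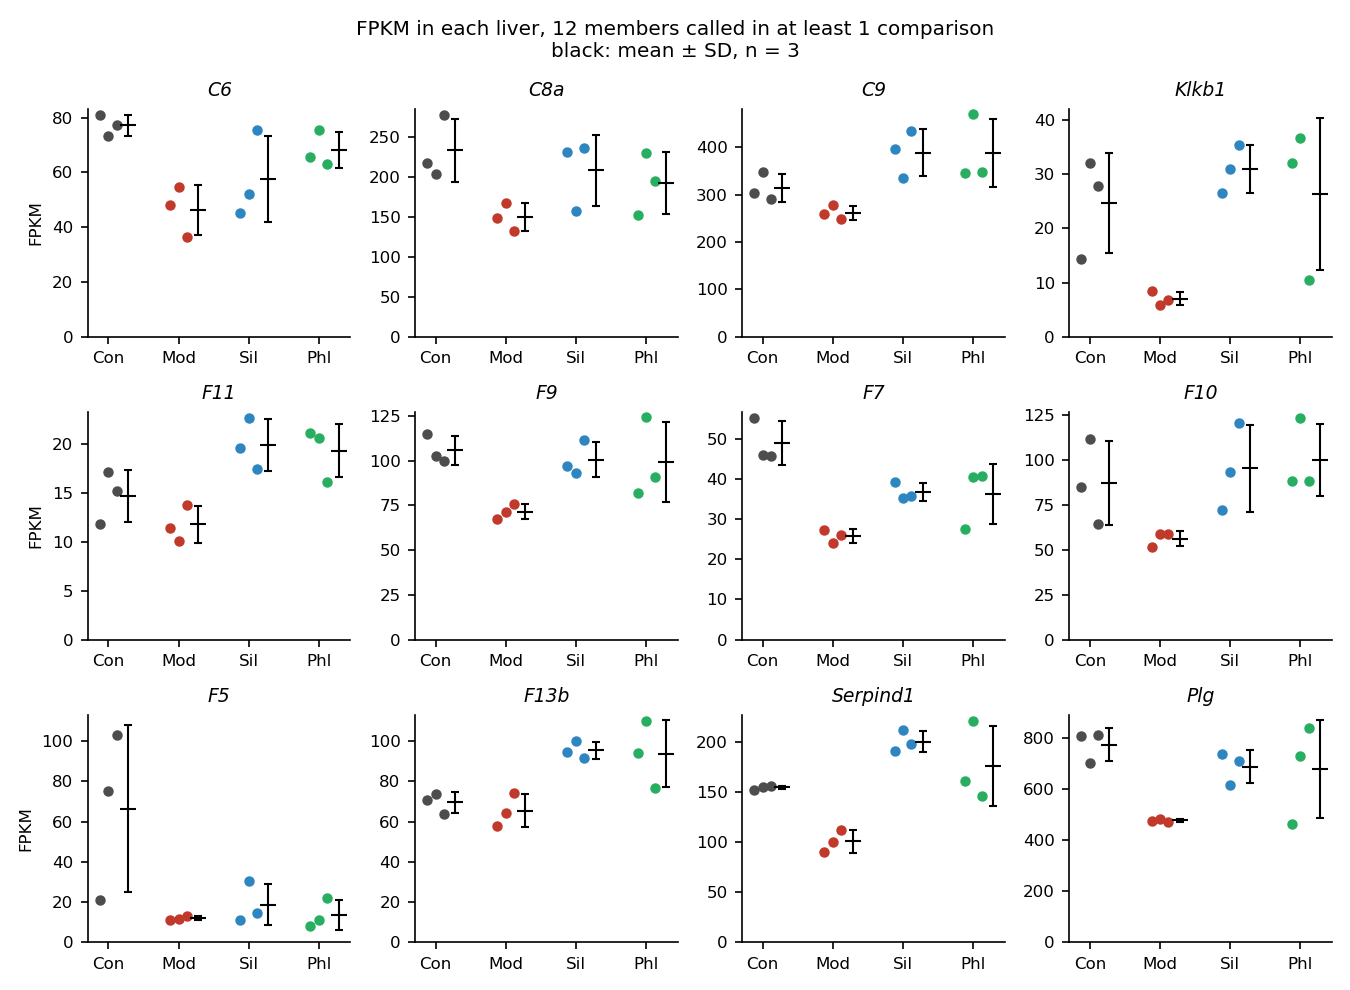
FPKM in each of the 12 livers for the 12 members that passed an adjusted p of 0.05 in model against control or in a drug group against model, with the mean ± SD of 3 livers beside the points. The groups are control (Con), model (Mod), silibinin (Sil) and phloridzin high-dose (Phl). The model livers of Serpind1, at 89.7, 100.1 and 112 FPKM, lie below all other livers.

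The contact system starts the intrinsic route of coagulation, and 2 of the 5 members that form them fell in the model group, where 3.8% of all genes fell. Klkb1 encodes plasma prekallikrein, which activates factor XII and releases bradykinin from kininogen. Its level was 14.4, 32.2 and 27.8 FPKM in the control livers, 8.36, 5.9 and 6.81 in the model livers, 26.6, 31 and 35.4 with silibinin and 32.1, 36.7 and 10.4 with phloridzin. All 3 model livers were below the 9 other livers, of which control 1 and phloridzin 3 were the lowest. The fall in the model group (log2 fold change -1.62, SE 0.42, adjusted p = 0.0133) and the rises with silibinin (log2 fold change 2.00, SE 0.42, adjusted p = 0.0107) and phloridzin (log2 fold change 1.61, SE 0.42, adjusted p = 0.031) passed on its own level, but none of the 3 held with the overlapping gene Gm45753 added. The phloridzin call was lost in 10 of 22 alternatives, among them without model 1 (adjusted p = 0.0595), model 2 (0.0956), model 3 (0.0735), phloridzin 1 (0.0728) or phloridzin 2 (0.114), and the call of the fall without control 2 (adjusted p = 0.0506).

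Klkb1 shares its locus with other entries of the table. The NONCODE transcript NONMMUT065437.2 spans chr8:45266690-45269203 (GRCm38) on the same strand, inside the annotated span of Klkb1 at chr8:45266689-45294859. It was at 65.5, 68.5 and 50.5 FPKM in the control livers, 27.9, 20.5 and 34.4 in the model livers, 54.4, 56.6 and 69.2 with silibinin and 44.3, 73.4 and 46.7 with phloridzin. These levels exceed those of Klkb1 itself, and the model livers were again below the 9 others. Added to Klkb1, an alternative chosen after seeing the data, the NONCODE transcript gave a log2 fold change of -1.31 (SE 0.24, adjusted p = 0.00258 by limma) in the model group, 1.39 (adjusted p = 0.00482) with silibinin and 1.18 (adjusted p = 0.0108) with phloridzin. The gene Gm45753 overlaps Klkb1 on the same strand too, and the 5 livers in which it was above 0 are the 5 lowest for Klkb1. It was at 35.2 FPKM in control 1, at 4.92, 13.8 and 27.8 in the model livers and at 31.8 in phloridzin 3, and was listed at 0 in the 7 other livers. Klkb1 and Gm45753 together were at 49.6, 32.2 and 27.8 FPKM in the control livers, 13.3, 19.7 and 34.6 in the model livers, 26.6, 31 and 35.4 with silibinin and 32.1, 36.7 and 42.2 with phloridzin, so that model 3 lay within the range of the other groups. Also an alternative chosen after seeing the data, this sum had a log2 fold change of -0.73 (SE 0.31, adjusted p = 0.0894 by limma) in the model group, 0.54 (adjusted p = 0.289) with silibinin and 0.78 (adjusted p = 0.129) with phloridzin. With both entries added the values were -0.98 (adjusted p = 0.00929), 0.89 (adjusted p = 0.0305) and 0.89 (adjusted p = 0.0327). The calls of Klkb1 thus depend on which entries are counted. How fragments were divided between these overlapping entries is uncertain.

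Factor XI, the next protease of the intrinsic route, is encoded by F11, whose start lies 4657 bases from the end of Klkb1 on the same strand of chromosome 8. F11 was at 11.8, 17.1 and 15.2 FPKM in the control livers, 11.4, 10.1 and 13.8 in the model livers, 19.5, 22.6 and 17.4 with silibinin and 21.1, 20.6 and 16.1 with phloridzin. The model and control livers of F11 overlapped (log2 fold change -0.29, adjusted p = 0.217 by limma), but F11 fell on the median ratio scale (log2 fold change -0.71, adjusted p = 0.00913), while all livers of both drug groups were above the 3 model livers. The rise passed with silibinin (log2 fold change 0.71, SE 0.17, adjusted p = 0.022) and with phloridzin (log2 fold change 0.67, SE 0.17, adjusted p = 0.0314). It was lost in 5 of 22 alternatives with silibinin, among them without model 1 (adjusted p = 0.0609), model 2 (0.0842), silibinin 1 (0.0618) or silibinin 2 (0.0762). With phloridzin it was lost in 7 of 22, among them without model 1 (adjusted p = 0.0835), model 2 (0.107), phloridzin 1 (0.0652) or phloridzin 2 (0.104). F9, factor IX, whose deficiency is haemophilia B, was at 115, 103 and 99.9 FPKM in the control livers, 67.2, 71.6 and 75.9 in the model livers, 97.3, 93.3 and 111 with silibinin and 82, 125 and 91.1 with phloridzin. The model livers of F9 were below the 9 others, and F9 fell in the model group (log2 fold change -0.56, SE 0.16, adjusted p = 0.0209), though not without control 1 (adjusted p = 0.07), model 1 (0.0636) or model 2 (0.0532). With the drugs its log2 fold change was 0.48 and 0.44 (adjusted p = 0.0696 and 0.0975), which did not pass. F9 passed with silibinin on the median ratio scale (log2 fold change 0.70, adjusted p = 0.0401), without phloridzin 1 (adjusted p = 0.0419) and without phloridzin 2 (adjusted p = 0.0337), and with phloridzin without phloridzin 1 (adjusted p = 0.0363). Factor XII (F12) averaged 155 ± 16.8 FPKM, 125 ± 13.8 FPKM, 150.5 ± 14 FPKM and 156 ± 35.6 FPKM in the control, model, silibinin and phloridzin groups. Kininogen (Kng1), the fifth most abundant member, was at 1060.0, 798 and 1259 FPKM in the control livers, 690.3, 1034 and 949 in the model livers, 982, 748 and 914 with silibinin and 607, 933 and 1020.1 with phloridzin. Its groups overlapped in each comparison (model against control, log2 fold change -0.22, adjusted p = 0.551 by limma).

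The extrinsic route begins with factor VII, and F7 fell in the model group. Its level was 55.4, 46 and 45.8 FPKM in the control livers, 27.5, 24.1 and 26.1 in the model livers, 39.3, 35.3 and 35.7 with silibinin and 27.7, 40.6 and 40.9 with phloridzin. The highest model liver was below the lowest liver of the control, silibinin and phloridzin groups, and the drug livers were all below the lowest control liver. F7 had 49 ± 5.46 FPKM in the control group and 25.9 ± 1.69 FPKM in the model group (SD, n = 3; log2 fold change -0.89, SE 0.16, adjusted p = 0.002), a call that held in 22 of 22 alternatives. With the drugs the log2 fold change of F7 was 0.49 with silibinin and 0.46 with phloridzin (adjusted p = 0.0633 and 0.0861). F7 passed with silibinin on the median ratio scale (log2 fold change 0.70, adjusted p = 0.0355) and with both drugs without phloridzin 1 (adjusted p = 0.0147 with silibinin and adjusted p = 0.00878 with phloridzin).

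F10 lies 1498 bases downstream of F7 on the same strand and encodes factor X, where the intrinsic and extrinsic routes meet. Its level was 84.8, 111 and 64.5 FPKM in the control livers, 51.2, 58.4 and 58.6 in the model livers, 72.1, 93.3 and 120.2 with silibinin and 88, 123 and 88.2 with phloridzin. The model livers of F10 were below all other livers. The rise with phloridzin passed (log2 fold change 0.80, SE 0.24, adjusted p = 0.0484) but was lost in 14 of 22 alternatives, among them without control 1 (adjusted p = 0.0671), model 1 (0.133), model 2 (0.102), model 3 (0.0908), silibinin 2 (0.0678), phloridzin 1 (0.0509), phloridzin 2 (0.167) or phloridzin 3 (0.0785). The difference with silibinin had an adjusted p of 0.066, but passed on the median ratio scale (log2 fold change 0.94, adjusted p = 0.0372) and without silibinin 1 (adjusted p = 0.0498). In the model group F10 passed on the median ratio scale (log2 fold change -1.03, adjusted p = 0.0144) and without control 3 (adjusted p = 0.0362). Only 57.1% of the FPKM of F10 was in its leading transcript, and on that transcript the log2 fold change with silibinin turned to -1.41. Factor V, the cofactor of factor Xa, had the lowest model level relative to control. F5 was at 21.1, 75.5 and 103 FPKM in the control livers, 11.3, 11.5 and 13.1 in the model livers, 11, 30.5 and 14.8 with silibinin and 7.94, 11 and 22 with phloridzin. The control livers differed by 4.87 times among themselves, and control 1 was below silibinin 2 and phloridzin 3 (log2 fold change -2.11, SE 0.56, adjusted p = 0.015). The call of F5 was lost without control 2 (adjusted p = 0.0534) or control 3 (0.0566). F2, the thrombin precursor, averaged 478 ± 19.1 FPKM in the control group and 358 ± 41.8 FPKM in the model group without overlap (log2 fold change -0.42, adjusted p = 0.112 by limma).

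The 3 fibrinogen chain genes lie side by side on chromosome 3 and varied together between single livers more than between groups. The alpha chain gene Fga was at 3682, 2484 and 5349 FPKM in the control livers, 3125, 4028 and 1345 in the model livers, 3095, 1622 and 2429.6 with silibinin and 1107, 2011 and 4321 with phloridzin. The gamma chain gene Fgg was at 3618, 2623 and 4818 FPKM (control), 2680.4, 3659.9 and 1349 (model), 3005, 1580.5 and 2353 (silibinin) and 1154, 2055 and 4066 (phloridzin). The beta chain gene Fgb was at 2001, 1342 and 2721 FPKM (control), 1383, 1849.8 and 753 (model), 1715, 882 and 1327 (silibinin) and 606, 1147 and 2363 (phloridzin). Control 3 had the highest and phloridzin 1 the lowest value of all 12 livers for each chain, and model 3 was the second lowest for each. The ratio of Fga to Fgb stayed between 1.75 and 2.26 and that of Fgg to Fgb between 1.72 and 1.98 in the 12 livers, while Fga itself ranged over 4.83 times. None of the chains passed in the model group (adjusted p = 0.501 for Fga, 0.354 for Fgb and 0.384 for Fgg by limma). Between Fgg and Fga lie 11026 bases and between Fga and Fgb, which is on the opposite strand, 6513 bases.

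F13b encodes the carrier subunit of the factor that cross-links fibrin. Against the model group its rise passed on the FPKM scale with silibinin only. The difference of silibinin from control did not pass (log2 fold change 0.45, adjusted p = 0.115 by limma). F13b was at 70.9, 73.9 and 63.8 FPKM in the control livers, 57.8, 64 and 74.2 in the model livers, 94.6, 99.8 and 91.7 with silibinin and 94.3, 110.2 and 76.7 with phloridzin. Control and model livers overlapped on the FPKM scale (log2 fold change -0.09, adjusted p = 0.661 by limma), but F13b fell in the model group on the median ratio scale (log2 fold change -0.54, adjusted p = 0.0228). Every liver of both drug groups was above the control and model livers in FPKM. The difference passed with silibinin (log2 fold change 0.55, SE 0.15, adjusted p = 0.0368) but missed with phloridzin (log2 fold change 0.51, adjusted p = 0.0526), and with phloridzin it passed on the median ratio scale (log2 fold change 0.68, adjusted p = 0.0152) and without phloridzin 3 (adjusted p = 0.0301). The silibinin call was lost in 8 of 22 alternatives, among them without control 1 (adjusted p = 0.0537), model 1 (0.115), model 2 (0.101), silibinin 1 (0.0928), silibinin 2 (0.0996) or silibinin 3 (0.0787).

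**Figure D3:**
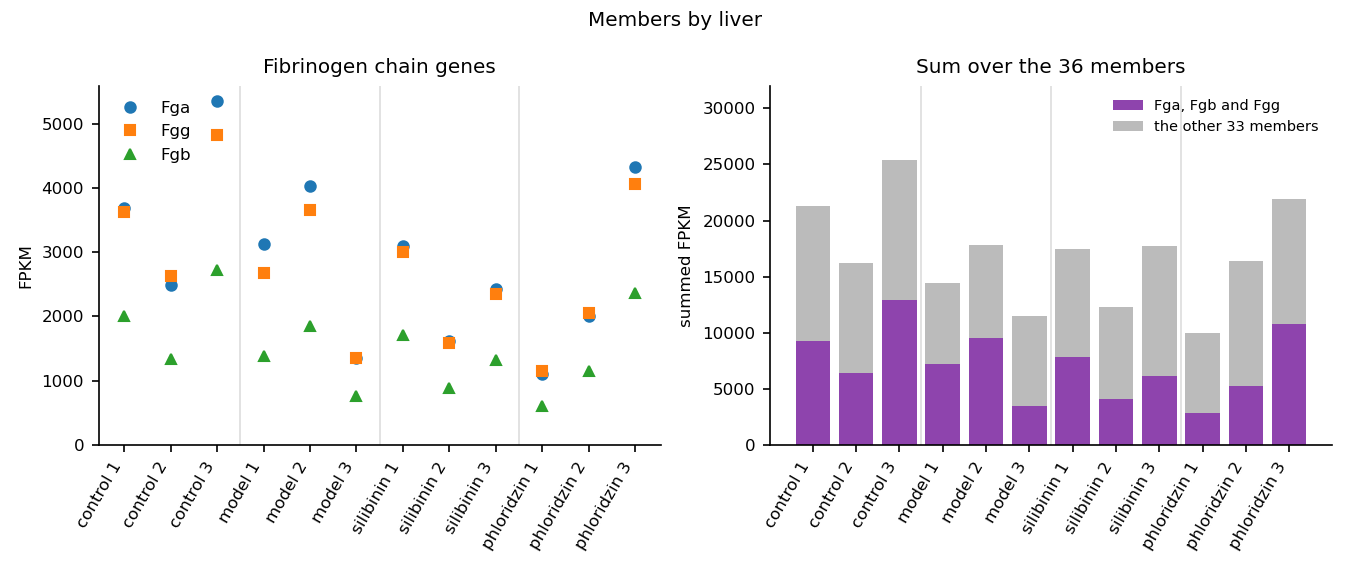
The left panel plots FPKM of the 3 fibrinogen chain genes in each of the 12 livers, and the right panel the summed FPKM of the 36 members, divided into the 3 chains and the other 33 members. The chains made up from 28.7% to 53.5% of the sum, and the lowest liver for the sum was phloridzin 1.

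Summed over the 36 members, the level was 21343, 16181 and 25415 FPKM in the control livers, 14441, 17835 and 11521 in the model livers, 17500.5, 12261 and 17698 with silibinin and 9989, 16356 and 21962 with phloridzin. The means were 20979.8 ± 4628, 14599 ± 3160.0, 15819.6 ± 3084 and 16103 ± 5991 FPKM (SD, n = 3), so that the model group had 69.6% of the control level, and the groups overlapped. On the median ratio scale it had 50.8%, and the lowest control liver (18282.7) was above the highest model liver (15491.5). Without the 3 chains the sum was 11434 ± 1494 FPKM in the control group, 7875 ± 549.8 in the model group, 9817 ± 1710.0 with silibinin and 9826 ± 2342 with phloridzin. Control and model livers did not overlap in this sum, with 9731.87 FPKM the lowest control and 8297.47 FPKM the highest model value.

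Among the anticoagulants, heparin cofactor II gave the firmest calls. Its gene Serpind1, which encodes an inhibitor of thrombin, was at 152, 155 and 156 FPKM in the control livers, 89.7, 100.1 and 112 in the model livers, 191, 211 and 197 with silibinin and 161, 220.3 and 146 with phloridzin. The model livers were below the 9 others, and the silibinin livers were above the 3 control livers. Serpind1 fell in the model group (log2 fold change -0.62, SE 0.16, adjusted p = 0.0137) and rose with silibinin (log2 fold change 0.99, SE 0.16, adjusted p = 0.0032) and phloridzin (log2 fold change 0.78, SE 0.16, adjusted p = 0.0109). The first 2 of these calls held in 22 of 22 alternatives, and the phloridzin call was lost in 1, the fit of the compared groups alone (adjusted p = 0.0839). Protein S (Pros1), the cofactor of activated protein C, averaged 42.4 ± 6.8 FPKM, 31.7 ± 1.77 FPKM, 41.4 ± 7.56 FPKM and 48.6 ± 15.6 FPKM in the 4 groups, and its 3 differences did not pass. Antithrombin (Serpinc1) had 374 ± 73.1 FPKM in the control and 326 ± 30.8 FPKM in the model group, and silibinin 1, at 120.0 FPKM, was far below the other livers.

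Of the plasmin system, plasminogen fell in the model group. Plg, the precursor of the fibrin-cleaving protease plasmin, was at 810.5, 702 and 814 FPKM in the control livers, 477, 485 and 474 in the model livers, 740.5, 615 and 711 with silibinin and 465, 731 and 842 with phloridzin. The model livers lay close to each other and below all control and silibinin livers, and phloridzin 1 was lower still (log2 fold change -0.69, SE 0.21, adjusted p = 0.029). The call of Plg was lost in 6 of 22 alternatives, among them without control 1 (adjusted p = 0.0789), control 3 (0.0748), model 1 (0.0662), model 2 (0.0671) or model 3 (0.069). Without phloridzin 1 Plg passed with silibinin (adjusted p = 0.0307) and with phloridzin (adjusted p = 0.0147). The plasmin inhibitor Serpinf2 had 385 ± 29.3 FPKM in the control group and 267 ± 35.6 FPKM in the model group (log2 fold change -0.53, adjusted p = 0.0606 by limma). Its silibinin group had 383 ± 35.1 FPKM and its phloridzin group 355 ± 88.2 FPKM.

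In 11 members the livers of at least 1 group differed by more than 3 times, namely C4b, C8b, Masp2, F5, Serpinc1, Proc, Klkb1, Vtn and the 3 fibrinogen chains. Vitronectin (Vtn), an adhesion protein of plasma and matrix, had the largest negative log2 fold change that did not pass in the model group, with levels of 1426, 1159.7 and 1622 FPKM in the control livers, 352, 226 and 929 in the model livers, 217, 269.9 and 1309 with silibinin and 768, 1174 and 389.8 with phloridzin. All model livers were below all control livers, and silibinin 3 and phloridzin 2 were within the range of the controls (log2 fold change -1.72, SE 0.70, adjusted p = 0.0794). Vtn passed without model 3 (adjusted p = 0.0388) and without silibinin 3 (adjusted p = 0.0297). C4b was at 24.7 FPKM in control 3 and 30.3 in silibinin 3, against 165 to 709.9 in the 10 other livers. The C8 beta chain gene C8b ranged from 17.4 to 125 FPKM, and its control livers alone from 17.4 to 117. Masp2 was at 5.09 to 7.41 FPKM in 8 livers and at 22.8 to 29.3 in the other 4, which are control 1, control 3, phloridzin 1 and phloridzin 3. Mbl1 lay between 2.28 and 7.42 FPKM.

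Proc, the gene of the anticoagulant protein C, had the largest positive log2 fold change that did not pass in the model group. It was listed at 0 in the 3 control livers, at 32.2, 19.6 and 0 FPKM in the model livers, at 0, 0 and 46 with silibinin and at 40.7, 0 and 30.7 with phloridzin. Only 1 transcript of Proc is in the table, and with the control livers at 0 no fold is given. Rows of the table without a gene symbol held 37.9% to 42.1% of the FPKM in the control livers, 31.4% to 35.8% in the model livers, 29.1% to 33.2% with silibinin and 29.3% to 34.6% with phloridzin. The part of these rows in the uneven members was not tested. Leaving out the 11 members, a choice made after seeing the data, 6 of 25 members fell in the model group (3.8% of all genes) and 24 of 25 had a log2 fold change below 0 (median -0.46). Of the same 25, 4 rose with silibinin (2.62% of all genes) and 3 with phloridzin (2.5%).

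At the level of single transcripts, 93 transcripts of the members were among 26908 tested. Higher and lower calls were counted together. On that count 9 of the 93 were called in the model group (9.68%, against 13.9% of all transcripts). With silibinin it was 2 (2.15% against 4.57%) and with phloridzin 1 (1.08% against 4.27%). Shares for falls or rises alone are not given, and among genes the calls in the model group were 4094 higher and 500 lower. For F5, F7, Klkb1, Plg and Serpind1 the gene is 1 transcript in the table. Of 3 tested transcripts of C6, 2 fell, among them the one with 95.3% of its FPKM. A short transcript of C9, ENSMUST00000127196, was called higher in the model group (log2 fold change 1.22, adjusted p = 0.0291 by limma), whereas 97.2% of the FPKM of C9 was in another transcript.

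The drug groups were then set against each other and against control. No member differed between phloridzin and silibinin by limma, and 0 had an unadjusted p under 0.05. Of all genes 0.0076% were higher and 0.0152% lower. For Serpind1 the difference of phloridzin from silibinin was -0.21 on the log2 scale (95% interval -0.56 to 0.15), and for Klkb1 it was -0.39 (-1.32 to 0.53). The 95% intervals of all 36 differences held 0, and 23 of them lay within 1 of 0 on the log2 scale, so that for the 13 others a difference of 2 times was within the interval. The 2 drugs were given at different doses, which limits what their values say side by side. Against control, silibinin gave 0 members that fell and 0 that rose by limma, where 0.433% of all genes fell and 4.59% rose, and 7 members had an unadjusted p under 0.05. The median of the members was -0.09 (all genes 0.16), and on the median ratio scale -0.32 (all genes -0.02) with 29 of 36 members below 0. On that scale the split of all calls went from 604 higher and 57 lower to 415 and 154. The median was -0.03 without control 1, -0.15 without control 2, -0.05 without silibinin 1, -0.01 without silibinin 2 and -0.17 without silibinin 3. The count of members called became 1 without control 1 and 1 without silibinin 3. Against control, phloridzin gave 1 that fell and 0 that rose, where 0.479% of all genes fell and 7.51% rose, and 3 members had an unadjusted p under 0.05. The median was -0.07 (all genes 0.18), and on the median ratio scale -0.33 (all genes -0.01) with 31 of 36 members below 0, where the split of all calls went from 988 higher and 63 lower to 559 and 218. This median turned to 0.05, with 22 of 36 members above 0, without phloridzin 1, and was -0.14 without control 2, -0.20 without phloridzin 2 and -0.12 without phloridzin 3. The called member was F5 (log2 fold change -2.05, SE 0.56, adjusted p = 0.0493), a call lost in 16 of 22 alternatives, among them without control 2 (adjusted p = 0.142), control 3 (0.149), model 1 (0.0667), model 2 (0.0684), model 3 (0.0691), silibinin 1 (0.0599), silibinin 2 (0.05), silibinin 3 (0.0616), phloridzin 1 (0.15) or phloridzin 2 (0.11).

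The other genes of both pathways moved in both directions in the model group. Of 21 further complement genes tested, 5 rose and 4 fell in the model group, where 31.1% of all genes rose and 3.8% fell. The receptor of C3a, C3ar1, rose from 1.12 ± 0.301 FPKM to 8.81 ± 1.5 FPKM (log2 fold change 2.21) and that of C5a, C5ar1, by 1.63 on the log2 scale. The lectin ficolin A (Fcna) fell from 30.3 ± 2.41 FPKM to 7.15 ± 6.08 FPKM (log2 fold change -2.21, SE 0.76, adjusted p = 0.0449 by limma). With the drugs 0 of the 21 fell by limma, with medians of -0.19 with silibinin and 0.24 with phloridzin. The number that rose with each drug is not reported here. On the median ratio scale the 5 higher and 4 lower in the model group became 2 and 8, where 13.2% of all genes rose and 11.8% fell.

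Of 27 further coagulation and fibrinolysis genes tested, 9 rose and 4 fell in the model group, where 31.1% of all genes rose and 3.8% fell. The share of risers was close to that of all genes on this scale only. By median ratios 8 rose and 5 fell, where 13.2% of all genes rose and 11.8% fell. Those with the largest rises were the plasmin receptor subunit Anxa2, from 3 ± 0.445 FPKM to 39.6 ± 2.54 FPKM, the urokinase receptor Plaur, from 0.322 ± 0.178 FPKM to 6.41 ± 1.35 FPKM, the protein C receptor Procr (log2 fold change 1.94) and the tissue plasminogen activator Plat (1.84). Their products act at cell surfaces or are made by other cells as well as hepatocytes. With silibinin 7 of these 27 fell (11.4% of all genes), among them Anxa2, Plaur and Procr, and 1 rose (2.62%), the protein Z gene Proz. With phloridzin 7 fell (10.4% of all genes), with Plaur at -1.65, Procr at -1.15 and thrombomodulin (Thbd) at -1.01 on the log2 scale, and 0 rose. The 3 genes of the vitamin K cycle, which some of the clotting factors need for gamma-carboxylation, gave no call in the 3 comparisons.

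**Figure D4:**
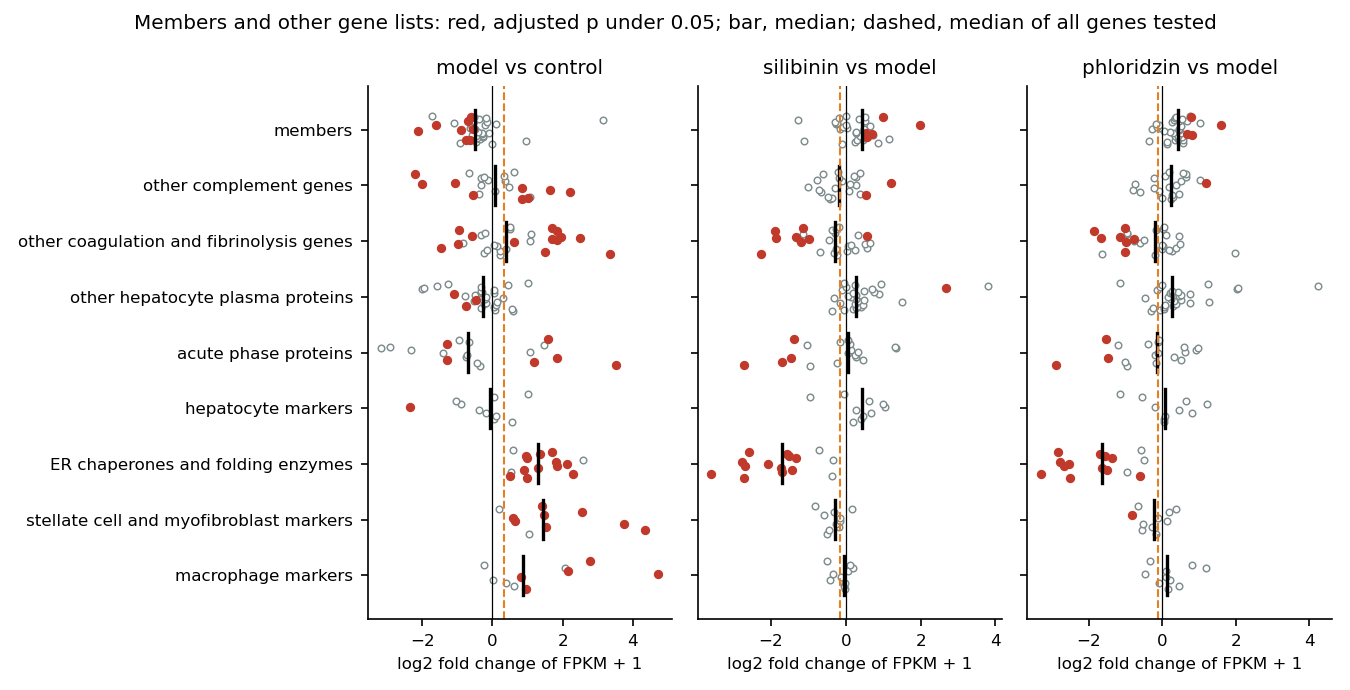
Log2 fold change of FPKM + 1 for the members and 8 other gene lists, with 1 point per tested gene, filled where the adjusted p was under 0.05, and a bar at the median of the list. The dashed line is the median of all genes tested. The median of the members was -0.49 in the model group, and that of the endoplasmic reticulum chaperones was -1.71 with silibinin.

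Other products of the hepatocyte were counted in the same way. Of 30 other plasma proteins, 3 fell in the model group, the growth factor carrier Igfals, Apoa2 and Azgp1, and 0 rose. Of all genes 3.8% fell and 31.1% rose. The median of the 30 was -0.27. On the median ratio scale 9 fell and 0 rose (11.8% and 13.2% of all genes), with a median of -0.67 against -0.94 for the members. Albumin averaged 12700.0 ± 2543 FPKM in the control group and 19098 ± 5330.2 FPKM in the model group, a rise that passed on neither scale. Median ratios divide the control livers by 0.82 to 0.89 and the model livers by 1.15 to 1.19, which narrows this difference. With silibinin 1 of the 30 rose, Serpina1b (2.62% of all genes), and with phloridzin 0 (2.5%). The log2 fold change was above 0 in 24 of the 30 with silibinin and in 22 with phloridzin (median 0.27 with each). Of 18 acute phase genes, 4 rose (Cd14, Il1rn, Socs3 and Hamp) and 2 fell (Hp and Saa4) in the model group, where 31.1% of all genes rose and 3.8% fell, which became 2 and 4 on the median ratio scale, and their summed level was 10572, 6012 and 17051 FPKM in the control livers and 6553, 6529 and 4451 in the model livers. With silibinin 4 acute phase genes fell (11.4% of all genes) and with phloridzin 3 (10.4%). Of the 13 major urinary protein genes tested, 9 fell in the model group (3.8% of all genes), led by Mup12, Mup2, Mup11 and Mup1. With silibinin 0 of them moved, and Mup20 rose with phloridzin (2.5% of all genes).

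Chaperones and folding enzymes of the endoplasmic reticulum, through which all secreted proteins pass, moved in the opposite direction to the members. Of 15 tested, 12 rose in the model group, with Creld2 at 2.28, Hyou1 at 2.14, Hspa5 at 1.83 and Manf at 1.80. Of all genes 31.1% rose. On the median ratio scale 10 rose (13.2% of all genes). With silibinin 12 fell (median -1.71, 11.4% of all genes fell) and with phloridzin 12 fell (median -1.63, 10.4% of all genes fell). Among 15 transcription factors of hepatocytes, Cebpb rose from 70.5 ± 10.5 FPKM to 125 ± 41.3 FPKM and Foxa3 rose by 0.64 on the log2 scale, while Cebpa fell from 148 ± 12.1 FPKM to 88.2 ± 22 FPKM (log2 fold change -0.77, SE 0.19, adjusted p = 0.0103). On the median ratio scale 0 of the 15 rose and 3 fell, where 13.2% of all genes rose and 11.8% fell. Cebpa rose with silibinin to 147 ± 10.6 FPKM (log2 fold change 0.76, adjusted p = 0.0232 by limma), and Cebpb fell with silibinin to 55.1 ± 8.45 FPKM and with phloridzin to 55.1 ± 4.55 FPKM.

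Markers of other cell types were counted beside the 31.1% of all genes that rose in the model group (13.2% on the median ratio scale). Of 10 stellate cell and myofibroblast markers 8 rose (6 on the median ratio scale), led by Col1a1, Col3a1, Lum and Col1a2, and their summed level, with Dcn the most abundant gene, was 76.6, 70.6 and 80.6 FPKM in the control livers, 241, 239.7 and 282 in the model livers, 244, 288 and 128 with silibinin and 342, 202 and 175 with phloridzin. Of 10 macrophage markers 5 rose (3 on that scale), led by Gpnmb, Trem2, Lyz2 and Adgre1, and their sum, with Lyz2 or Cd5l the most abundant, was 129.6, 231 and 184, 368, 583 and 499, 445, 554 and 428 and 697, 677 and 361 FPKM in the same order. With silibinin 0 of the markers of these 2 lists passed and with phloridzin 1, the stellate cell gene Lrat, which fell. With silibinin the neutrophil marker Retnlg fell (log2 fold change -1.36, SE 0.39, adjusted p = 0.0406 by limma), though 0 of 3 neutrophil markers passed on the median ratio scale. The red cell marker Alas2 rose with silibinin (log2 fold change 0.54, SE 0.13, adjusted p = 0.0203 by limma). However, 5 of the 7 platelet and red cell markers had a log2 fold change below 0 with silibinin (median -0.53). Their summed level averaged 637 FPKM in the model group, 406 with silibinin and 586 with phloridzin. In the model group the cholangiocyte markers had 2 of 3 tested genes higher (Spp1 and Krt19), with sums of 11.4, 13.1 and 16.8 FPKM in the control and 47, 56 and 50.7 in the model livers, the neutrophil markers 1 of 3 (Retnlg), the platelet and red cell markers 1 of 7 (Pf4) and the sinusoidal endothelial markers 0 of 10. On the median ratio scale these became 1 of 3 for the cholangiocyte, 0 of 3 for the neutrophil and 1 higher and 2 lower of 7 for the platelet and red cell markers. The sum of the platelet and red cell markers, with Hbb-bs the most abundant, was 963, 1103 and 899 FPKM in the control livers and 767, 661 and 483 in the model livers, without overlap. Their part in the fall of the members was not tested.

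The promoters of the members were searched for motifs of transcription factors of the hepatocyte. RefSeq promoters of GRCm38.p6 (250 bases before to 50 after the start of the gene) matched 29 of the 36 members, and C4b, Cfb, Cfi, Masp1, Plg, Proc and Kng1 were not matched. The letters TTGCNNAA, a form of the C/EBP motif, searched on both strands, were in the promoters of 10 of 29 members and in 10.75% of the 27025 promoters. The short site of HNF1, GTTAAT, was in 9 of 29 members (7.2% of all promoters), TTCNNNGAA, the STAT motif, in 8 of 29 (8.47%) and CAAAGTCCA, an HNF4 motif, in 0 of 29 (0.477%). No match of 1 motif overlapped with a match of another in the members. A match describes the letters of this window, not a site that is bound. The promoters of Serpind1 (chr16:17331121-17331420, + strand) and F7 (chr8:13025784-13026083, + strand), which gave the firmest calls, of the neighbours F11 (chr8:45261982-45262281, - strand) and Klkb1 (chr8:45294786-45295085, - strand), and of Fga (chr3:83025903-83026202, + strand) and Fgb (chr3:83049814-83050113, - strand), which varied together, are given 5′ to 3′ with matches of TTGCNNAA in capitals.
Serpind1: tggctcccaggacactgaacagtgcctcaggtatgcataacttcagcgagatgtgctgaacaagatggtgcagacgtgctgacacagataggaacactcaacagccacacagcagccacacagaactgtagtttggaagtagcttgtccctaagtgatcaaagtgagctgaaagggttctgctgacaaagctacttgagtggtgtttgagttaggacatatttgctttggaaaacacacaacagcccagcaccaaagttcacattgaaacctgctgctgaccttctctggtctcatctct
F7: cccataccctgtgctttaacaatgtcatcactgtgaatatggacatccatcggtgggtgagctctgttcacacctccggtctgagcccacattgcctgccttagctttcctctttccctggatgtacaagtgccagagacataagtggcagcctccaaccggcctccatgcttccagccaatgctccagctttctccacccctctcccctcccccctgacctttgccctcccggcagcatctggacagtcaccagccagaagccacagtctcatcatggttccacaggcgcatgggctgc
F11: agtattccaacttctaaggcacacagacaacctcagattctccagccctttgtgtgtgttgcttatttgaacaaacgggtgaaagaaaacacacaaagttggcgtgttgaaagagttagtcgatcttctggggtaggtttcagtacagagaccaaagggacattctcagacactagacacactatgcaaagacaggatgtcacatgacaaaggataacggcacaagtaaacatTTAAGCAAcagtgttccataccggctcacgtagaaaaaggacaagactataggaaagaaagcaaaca
Klkb1: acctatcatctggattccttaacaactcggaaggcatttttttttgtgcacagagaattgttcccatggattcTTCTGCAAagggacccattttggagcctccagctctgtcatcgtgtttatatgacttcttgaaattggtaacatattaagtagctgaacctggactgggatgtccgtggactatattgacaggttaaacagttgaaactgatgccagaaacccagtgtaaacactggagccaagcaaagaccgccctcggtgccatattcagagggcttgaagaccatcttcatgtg
Fga: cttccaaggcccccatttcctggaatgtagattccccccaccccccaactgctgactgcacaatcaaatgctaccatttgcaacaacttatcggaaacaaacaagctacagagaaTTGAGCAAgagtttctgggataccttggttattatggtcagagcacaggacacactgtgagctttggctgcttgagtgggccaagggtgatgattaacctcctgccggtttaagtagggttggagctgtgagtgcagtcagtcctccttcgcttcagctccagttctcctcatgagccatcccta
Fgb: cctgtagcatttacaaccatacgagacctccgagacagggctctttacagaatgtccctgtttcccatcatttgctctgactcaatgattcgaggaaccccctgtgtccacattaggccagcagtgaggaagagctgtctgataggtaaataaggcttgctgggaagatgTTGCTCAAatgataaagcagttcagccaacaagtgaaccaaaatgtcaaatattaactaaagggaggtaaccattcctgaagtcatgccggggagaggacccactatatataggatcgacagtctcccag
Those of Serpind1 and F7 held 0 matches of any of the 4 motifs as spelled here, and other forms of these motifs were not searched. F11, Klkb1, Fga and Fgb held 1 C/EBP match each, which began 17 bases before the start of F11, 177 before that of Klkb1, 135 before that of Fga and 80 before that of Fgb, and Fga and Fgb held 1 match each of the HNF1 letters and of the STAT motif.

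The limits of these values are those of 3 livers in each group and of whole tissue. RNA levels do not give the amount or activity of the plasma proteins. The table holds FPKM, so the values are relative to the other RNA of a liver, and the counts of called members depend on the scale. The control group is not stated here to have received the oil in which CCl4 was given, so the oil and CCl4 cannot be separated. The order of RNA extraction and sequencing is not given. The model livers enter every comparison of a drug with the model group, and each drug was sequenced at 1 dose.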

How the data were processed

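The authors sequenced liver RNA of 12 mice and deposited FPKM values for 169430 transcripts, scaled by transcript length and library size. The unit was read from the values, which give whole fragments for at least 98.7% of low values (within 0.05). The submitters' processing notes name HISAT2 2.1.0, StringTie 1.3.3b, DESeq 1.28.0 and mm10, without their roles. Silibinin was given at 27.3 mg/kg. Gene values are FPKM summed over the transcripts with a symbol, at positions of GRCm38. Genes with a mean of at least 0.5 FPKM entered 1 limma fit of all 12 livers on log2(FPKM + 1), with a variance trend. Its tests are two-sided, and Benjamini-Hochberg adjustment covers all genes tested. A count test had been planned had the table held counts. With 3 livers against 3 an exact permutation test cannot go below 0.1. Members and gene lists were chosen with earlier results of these data known. Values in every liver are given for members called in a main comparison, the 5 most abundant members and those with the largest rise and fall not called in the model group, and of each other list up to 4 called genes per comparison are named, except a few that are not reported here. Alternatives were another scaling, a pseudocount of 0.1, no filter, coding or leading transcripts, compared groups alone, the replicate block, each liver left out and, added after seeing the data, overlapping NONCODE transcripts, those of other genes and both. No set test was made. Software was R 4.3.3, limma 3.58.1, Python 3.11.15, numpy 2.4.6, pandas 2.3.3, matplotlib 3.10.9 and the R package data.table (1.17.8).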

Additional observations from a re-analysis of the deposited data

How the results depend on the processing

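In the model group 8 members fell, 20 on the median ratio scale, 6 to 11 in the other refits and 5 to 12 with 1 liver left out. With silibinin 5 rose, 10 on the median ratio scale, 2 with leading transcripts, 3 with the replicate block and 2 to 10 with 1 liver left out. With phloridzin 4 rose, 2 with no filter, 1 with leading transcripts, 0 with the compared groups alone, 1 with the replicate block and 1 to 9 with 1 liver left out. Between the drugs 0 members were called in all 22 alternatives. Against control, silibinin gave 0 and, with 1 liver left out, 0 to 1. Phloridzin gave 1, but 0 with no filter, with coding transcripts, with leading transcripts, with the compared groups alone and with overlapping NONCODE transcripts (alone or with those of other genes), and 0 to 2 with 1 liver left out. Shares of all genes moved in these refits too. In the model group 3.8% fell, and 11.8% on the median ratio scale. With phloridzin 2.5% rose, and 1.74% with leading transcripts, 0.596% with the compared groups alone and 1.92% with the replicate block. The cause of these shifts was not tested.

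The replicate numbers did not pair the livers: of 18 pairs with the same number, 1 had a correlation of deviations above 0.1, and the range was -0.0909 to 0.101. With the replicate block 7 members fell in the model group, 3 rose with silibinin and 1 with phloridzin.

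For the 19 members with values in every liver, 44 log2 fold changes were refitted 22 times. 834 refits kept direction and side of the threshold, 103 lost the call, 27 gained it and 4 turned direction. These 4 were F10 with silibinin on the leading transcript (-1.41) and F5 with phloridzin without phloridzin 3 (range with 1 liver left out, -0.325 to 0.357) and with overlapping NONCODE transcripts, alone or with those of other genes (-0.0555 in both). With the overlapping gene Gm45753 added, Klkb1 lost its call in all 3 comparisons (-0.73, 0.54 and 0.78). The summed FPKM of the members in the model group was 69.6% of control, and 50.8% on the median ratio scale. With 3 livers a group, differences of 2 times or more can be missed.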
